A study of Mus musculus with 16 samples.

Results

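The genes described here are the mouse zinc finger genes named Zfp and a number, read on microarrays in RAW264.7, a mouse line of tumour origin that behaves like macrophages. They were chosen by a rule on names and detection: a probe of the gene carried a RefSeq mRNA accession and was well above background, in the judgement of the scanner software, on all 4 arrays of the DMSO vehicle, and the brightest such probe stood for the gene. Zfp36, whose protein binds AU-rich mRNA and is of another kind, was left out. Of 331 genes so named on the array, 325 had a probe with such an accession and 219 met the rule, among 15883 genes tested in all. All cells were kept in low serum the day before. They were then incubated with cordycepin at 20 μM in DMSO or with DMSO alone. In the LPS conditions the incubation lasted 60 min and LPS, the bacterial lipopolysaccharide, was then added at 1 μg/ml for 60 min more, whereas the other cultures stayed without LPS for the same 120 min. Vehicle alone is called DMSO and the drug alone cordycepin, and the stimulated cultures are called LPS+DMSO and LPS+cordycepin. The 4 conditions had 4 replicates each, 16 arrays in all. Every replicate number stands for a culture day with the 4 conditions in wells of one plate, and all come from 1 cell line, a single tumour-derived model of the macrophage.

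The proteins of most of these genes carry arrays of Cys2-His2 zinc fingers, small folds that each read a few bases of DNA. Many of them also carry a KRAB box, which recruits the corepressor Trim28 and through it histone methylation, and such proteins are best known for the silencing of retroelements and for imprinting. Others bind RNA or ribosomes or act as sequence-specific regulators without a KRAB box. Cordycepin is an adenosine analogue that inhibits polyadenylation, and the question of the experiment was which mRNAs it alters with and without an inflammatory stimulus.

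The promoters of the 4 members most lowered by cordycepin without LPS and of the member most raised are shown, because they span the range from CG-poor to CG-rich starts. Each is the 300 bases from 250 before to 50 after the start of the gene, from RefSeq on GRCm38.p6, with every CG dinucleotide in capitals. Zfp953 lies at chr13:67360523-67360822 on the minus strand, Zfp607 (now Zfp607a) at chr7:27860335-27860634 on the plus strand, Zfp3 at chr11:70764197-70764496 on the plus strand, Zfp319 at chr8:95331762-95332061 on the minus strand, and Zfp52 at chr17:21535289-21535588 on the plus strand.
Zfp953: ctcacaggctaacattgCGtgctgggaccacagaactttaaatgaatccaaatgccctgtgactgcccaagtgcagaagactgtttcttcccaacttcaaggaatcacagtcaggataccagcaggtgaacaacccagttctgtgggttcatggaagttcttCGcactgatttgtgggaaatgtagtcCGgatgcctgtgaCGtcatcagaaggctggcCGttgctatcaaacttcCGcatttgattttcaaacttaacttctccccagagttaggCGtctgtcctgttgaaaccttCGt
Zfp607: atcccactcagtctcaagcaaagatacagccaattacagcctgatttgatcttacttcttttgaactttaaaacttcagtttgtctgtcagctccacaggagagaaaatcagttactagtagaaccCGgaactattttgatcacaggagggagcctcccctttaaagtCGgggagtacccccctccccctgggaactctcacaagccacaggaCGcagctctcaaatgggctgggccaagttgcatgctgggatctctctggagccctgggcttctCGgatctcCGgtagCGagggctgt
Zfp3: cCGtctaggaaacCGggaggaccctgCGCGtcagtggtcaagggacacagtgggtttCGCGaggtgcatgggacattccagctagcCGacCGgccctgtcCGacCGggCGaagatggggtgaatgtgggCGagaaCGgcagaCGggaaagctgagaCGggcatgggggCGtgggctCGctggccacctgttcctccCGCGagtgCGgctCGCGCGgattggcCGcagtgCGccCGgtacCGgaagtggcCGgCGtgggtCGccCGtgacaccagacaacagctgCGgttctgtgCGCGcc
Zfp319: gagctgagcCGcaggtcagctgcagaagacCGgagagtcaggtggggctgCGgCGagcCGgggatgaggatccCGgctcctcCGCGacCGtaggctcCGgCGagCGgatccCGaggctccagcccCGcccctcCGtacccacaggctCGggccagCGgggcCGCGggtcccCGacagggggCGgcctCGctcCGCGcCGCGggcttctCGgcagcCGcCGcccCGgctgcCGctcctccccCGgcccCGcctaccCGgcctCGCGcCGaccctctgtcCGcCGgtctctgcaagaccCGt
Zfp52: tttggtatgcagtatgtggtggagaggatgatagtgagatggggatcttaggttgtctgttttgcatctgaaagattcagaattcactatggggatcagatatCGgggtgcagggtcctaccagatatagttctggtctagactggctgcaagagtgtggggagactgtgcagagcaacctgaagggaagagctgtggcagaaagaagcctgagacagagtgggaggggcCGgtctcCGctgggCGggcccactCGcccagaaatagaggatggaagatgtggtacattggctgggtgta
The windows of Zfp953, Zfp607 and Zfp52 held 8, 6 and 5 CG dinucleotides, and those of Zfp3 and Zfp319 held 34 and 40. Strongly lowered members thus included both kinds of start.

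Windows were found for 185 members (231 windows, as a gene can have several starts). Their median was 16 CG dinucleotides and a GC content of 56.3%, compared with 21 and 60.7% for the other genes that met the same rule, and 7 and 52.7% over all 32851 windows. Letters were searched on either strand, and shares are given for the members, for the other genes that met the rule and for all windows. The shares were 44.2%, 37.9% and 37.4% for CCAAT, 19.5%, 18.8% and 8.86% for CCGGAAG, 6.49%, 7.07% and 13.6% for TATAAA, and 5.63%, 3.21% and 1.79% for TGACGTCA. A match is a description of the letters, and these shares were not tested.

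Array probes are shown for 3 members because they read the part of these mRNAs that the family shares, the coding sequence of the linker between neighbouring fingers. The letters ACTGGAGA, in capitals, were searched on the strand of the mRNA. Their positions, on mm9 as the array files give them, are chr2:150234210-150234269 on the minus strand for Zfp442, chr7:50445732-50445791 on the plus strand for Zfp936, and chr17:33471496-33471555 on the minus strand for Zfp81.
Zfp442: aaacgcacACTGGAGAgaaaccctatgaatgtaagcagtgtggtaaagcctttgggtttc
Zfp936: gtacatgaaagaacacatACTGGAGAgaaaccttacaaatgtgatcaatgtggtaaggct
Zfp81: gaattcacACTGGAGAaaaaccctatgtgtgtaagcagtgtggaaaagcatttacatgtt
These letters were in 5 of the 219 members' probes (2.28%) and in 18 of 10136 probes of the other genes that met the rule (0.178%). A run of 20 bases shared with a probe of another name was found in the probes of 14 members, Zfp442, Zfp936 and Zfp72 among them, so that their signal may be partly that of a related mRNA and their values are uncertain.

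Tnf, an inflammatory cytokine induced by LPS, was at 11.08 on the log2 scale in DMSO and 17.79 in LPS+DMSO. Of 9 macrophage markers 8 could be tested, and all 8 were well above background on all 16 arrays, at mean levels from 11.27 to 16.84. None of the epithelial or fibroblast markers (4 and 3 genes) passed the filter on dim probes. The T cell markers Cd3e and Cd4 were detected, at 8.63 and 10.05 in DMSO. The B cell marker Cd79a was at 6.32 in LPS+DMSO and 8.96 in LPS+cordycepin, and its part in the results below was not tested. Between 37.1% and 51.2% of spots per array were well above background.

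In DMSO the members were dim compared with other genes. Their level, a log2 signal scaled to the 75th percentile of each array, had a median of 9.2 (range 6.39 to 18.17), and the 10136 other genes that met the same rule had a median of 10.96. Since a probe's signal depends on its sequence, these levels do not rank genes by mRNA. All 219 were well above background on the 4 DMSO arrays by the rule, 208 were so on all 4 arrays of cordycepin, 197 of LPS+DMSO and 185 of LPS+cordycepin. That loss was measured from a starting point that the rule had set and was not tested. Zfp128, Zfp712 and Zfp94 were not well above background on any array of LPS+cordycepin. Just inside the threshold were Zfp563, Zfp40 and Zfp712, at 6.39, 6.46 and 6.49 in DMSO. Just outside were Zfp619 and Zfp608, detected on 3 DMSO arrays at 6.9 and 6.45.

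The brightest member was Zfp628, at a mean of 18.14 over the conditions, before Zfp408 (17.49), Zfp658 (15.67), Zfp622 (15.48) and Zfp663 (13.86). The probe of Zfp408 shares 20 bases with probes of 10 other names and that of Zfp663 with probes of 23. A further probe of Zfp628 was at 9.01 and changed by -1.84 in LPS+cordycepin against LPS+DMSO (log2), whereas the bright probe changed by -0.08. None of the 5 brightest probes passed the test in LPS+cordycepin against LPS+DMSO by limma (adjusted p = 0.0625 to 0.942).

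Cordycepin lowered more of these genes than it raised, with and without LPS. In LPS+cordycepin against LPS+DMSO, a comparison that uses no DMSO array and is therefore independent of the rule, 58 of 219 members (26.5%) were lower and 17 (7.76%) were higher at an adjusted p under 0.05 in limma, and 144 did not pass. Over all 15883 genes tested, 8.4% were lower and 10.8% higher. With a change of at least 2-fold required as well, 14 members were lower and 8 higher, compared with 1.54% and 5.96% of all genes. The genes tested include genes detected in another condition only, which members by the rule are not. Among the 10136 other genes that met the same rule, 170 were lower and 148 higher at 2-fold, so the share of 5.96% is not a matched one. The scaling set the split to a degree: quantile normalization gave 83 lower and 11 higher, the 75th percentile over all probes 79 and 10, and scaling to the spiked-in controls 14 and 2. The median change of the members was -0.17 on the log2 scale, and that of all genes was 0.03. With normexp background correction these medians were -0.06 and 0.06, with 40 members lower and 15 higher. A fit of only the conditions compared gave 58 lower and 11 higher. Within replicates 1 to 4 the members' median was -0.13, -0.20, -0.19 and -0.24, below 0 on every culture day. In bulk cultures, less RNA per cell and fewer cells with the RNA cannot be told apart.

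Without LPS, 69 members (31.5%) were lower in cordycepin than in DMSO and 7 (3.2%) higher, beside 7.72% and 8.1% of all genes. The DMSO arrays had chosen the members, so these values describe and do not test, and the same holds for every comparison with DMSO below. The median change was -0.29, and -0.28, -0.33, -0.25 and -0.23 within the 4 replicates. Among the 10136 other genes detected in DMSO by the same rule, 9.94% were lower and 3.71% higher, with a median of 0.00. For the same genes in LPS+cordycepin against LPS+DMSO, the shares were 10.3% and 5.65% and the median 0.02.

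**Figure D1:**
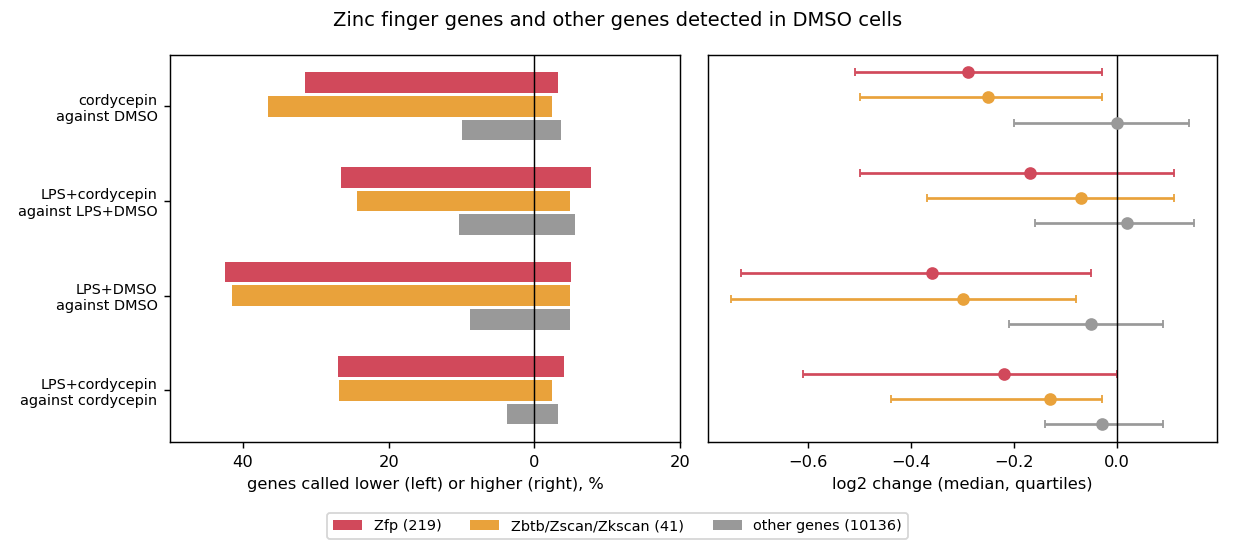
Left, share (%) of Zfp genes, of Zbtb, Zscan and Zkscan genes, and of other genes called lower or higher by limma (adjusted p under 0.05) in each comparison; right, median log2 change with bars from the lower to the upper quartile over genes. All lists hold genes detected on the 4 DMSO arrays, and the Zfp bars to the left of 0 reach 26.5% to 42.5%, against 3.79% to 10.3% for other genes.

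The members most lowered by cordycepin without LPS, in all 4 replicates, were Zfp953, Zfp3, Zfp607, Zfp319, Zfp951, Zfp398, Zfp800, Zfp746, Zfp433, Zfp386, Zfp128 and Zfp945. They were ranked on the arrays without LPS, and the arrays with LPS, from other wells of the same plates, were then examined for the same genes. There, 11 of the 12 were lower in LPS+cordycepin relative to LPS+DMSO by limma, beside 8.4% of all genes, and the changes of the 12 were -2.12 to -0.74 (median -1.28). The exception was Zfp945. With normexp background correction, which shrinks the changes of dim probes, Zfp319 (-0.56, adjusted p = 0.0567), Zfp3 (-0.36, 0.321), Zfp951 (-0.28, 0.265), Zfp398 (-0.22, 0.652) and Zfp128 (-0.12, 0.792) were no longer called. Of the 11, those 5 were among the genes not well above background on all 4 LPS+cordycepin arrays.

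Zfp953 had log2 levels of 8.18, 7.70, 8.40 and 8.38 in DMSO, 5.56, 6.35, 6.16 and 6.00 in cordycepin, 7.52, 8.02, 8.0 and 7.73 in LPS+DMSO, and 5.59, 5.77, 6.40 and 5.75 in LPS+cordycepin. Both cordycepin groups lay wholly below their vehicle groups, and LPS groups overlapped with those without LPS. Its change was -2.15 ± 0.21 (SE) without LPS and -1.94 ± 0.21 with LPS (adjusted p = 5.23e-06), and only 2 of the 4 LPS+cordycepin arrays were well above background.

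Zfp607 had log2 levels of 8.36, 8.60, 8.84 and 8.78 in DMSO, 6.42, 6.42, 6.71 and 6.80 in cordycepin, 7.69, 8.30, 8.30 and 8.42 in LPS+DMSO, and 5.60, 5.89, 6.37 and 6.35 in LPS+cordycepin. All 8 cordycepin arrays lay below all 8 vehicle arrays. Its change was -2.06 ± 0.19 without LPS and -2.12 ± 0.19 with LPS (adjusted p = 8.48e-07).

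Zfp3 had log2 levels of 7.09, 7.55, 7.11 and 7.15 in DMSO, 5.25, 4.43, 5.11 and 5.66 in cordycepin, 6.20, 5.85, 6.14 and 5.63 in LPS+DMSO, and 4.03, 4.44, 4.26 and 4.88 in LPS+cordycepin. The order was DMSO, LPS+DMSO, cordycepin and LPS+cordycepin by the means, with overlap between LPS+DMSO and cordycepin and between the last pair. Its change was -2.12 ± 0.23 without LPS and -1.55 ± 0.23 with LPS (adjusted p = 0.000134), and it was well above background on 2 cordycepin and 1 LPS+cordycepin array. Zfp319 likewise went from 7.53 ± 0.20 (SD, n = 4) in DMSO to 5.61 ± 0.48 in cordycepin, and from 6.73 ± 0.18 in LPS+DMSO to 5.06 ± 0.33 in LPS+cordycepin. Its change was -1.67 ± 0.21 with LPS (adjusted p = 2.42e-05), with 1 LPS+cordycepin array well above background.

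Zfp746 (Paris), a KRAB protein known as a repressor of the gene for the coactivator PGC-1α and as a target of the ubiquitin ligase parkin, was bright enough to be well above background on all 16 arrays. Its log2 levels were 10.00, 10.49, 10.11 and 10.00 in DMSO, 8.88, 8.81, 9.09 and 8.89 in cordycepin, 9.47, 9.66, 9.80 and 9.84 in LPS+DMSO, and 8.47, 8.55, 8.40 and 8.53 in LPS+cordycepin. The 4 groups did not overlap, in the order DMSO, LPS+DMSO, cordycepin and LPS+cordycepin. Its change was -1.23 ± 0.12 without LPS and -1.21 ± 0.12 with LPS (adjusted p = 1.59e-06). Zfp433 changed by -1.19 and -1.09 (adjusted p = 4.6e-06 with LPS) and Zfp386 by -1.18 and -0.83 (adjusted p = 3.35e-05), also on 16 detected arrays each. Of Zfp386, 2 further probes changed by -0.15 and -0.55 with LPS.

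Zfp800, a repressor known from enteroendocrine cells, was the member of the 12 that LPS raised. Its log2 levels were 9.04, 8.86, 9.09 and 8.90 in DMSO, 7.77, 7.87, 7.59 and 7.73 in cordycepin, 9.65, 9.75, 9.60 and 9.38 in LPS+DMSO, and 8.31, 8.51, 8.09 and 8.06 in LPS+cordycepin. The groups did not overlap, with LPS+DMSO on top and cordycepin at the bottom. Cordycepin changed it by -1.23 ± 0.11 without LPS and -1.36 ± 0.11 with LPS (adjusted p = 3.86e-07), and LPS by 0.62 ± 0.11 in DMSO. A further probe changed by -1.62 in LPS+cordycepin against LPS+DMSO.

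Zfp951 changed by -1.48 without and -0.74 with LPS (adjusted p = 0.000209), and Zfp398 by -1.26 and -1.36 (adjusted p = 0.00172), the latter detected on 2 LPS+DMSO arrays and 1 LPS+cordycepin array. In the deposited normalized values Zfp398 changed by -0.74 and was not called (adjusted p = 0.0544). Zfp128 was at 4.61 ± 0.38 in LPS+DMSO, where 2 arrays were well above background, and at 3.49 ± 0.48 in LPS+cordycepin, where none was, so that no fold is given (adjusted p = 0.00299, and 0.0517 without replicate 3). Zfp945 varied most among its DMSO replicates of all members, with 7.50, 9.40, 7.47 and 7.60 in DMSO and 4.31, 7.62, 5.99 and 6.74 in LPS+cordycepin. Its change without LPS was -0.98 ± 0.56, with replicate 2 of DMSO far above the other 3, and the change with LPS did not pass the test (adjusted p = 0.265).

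**Figure D2:**
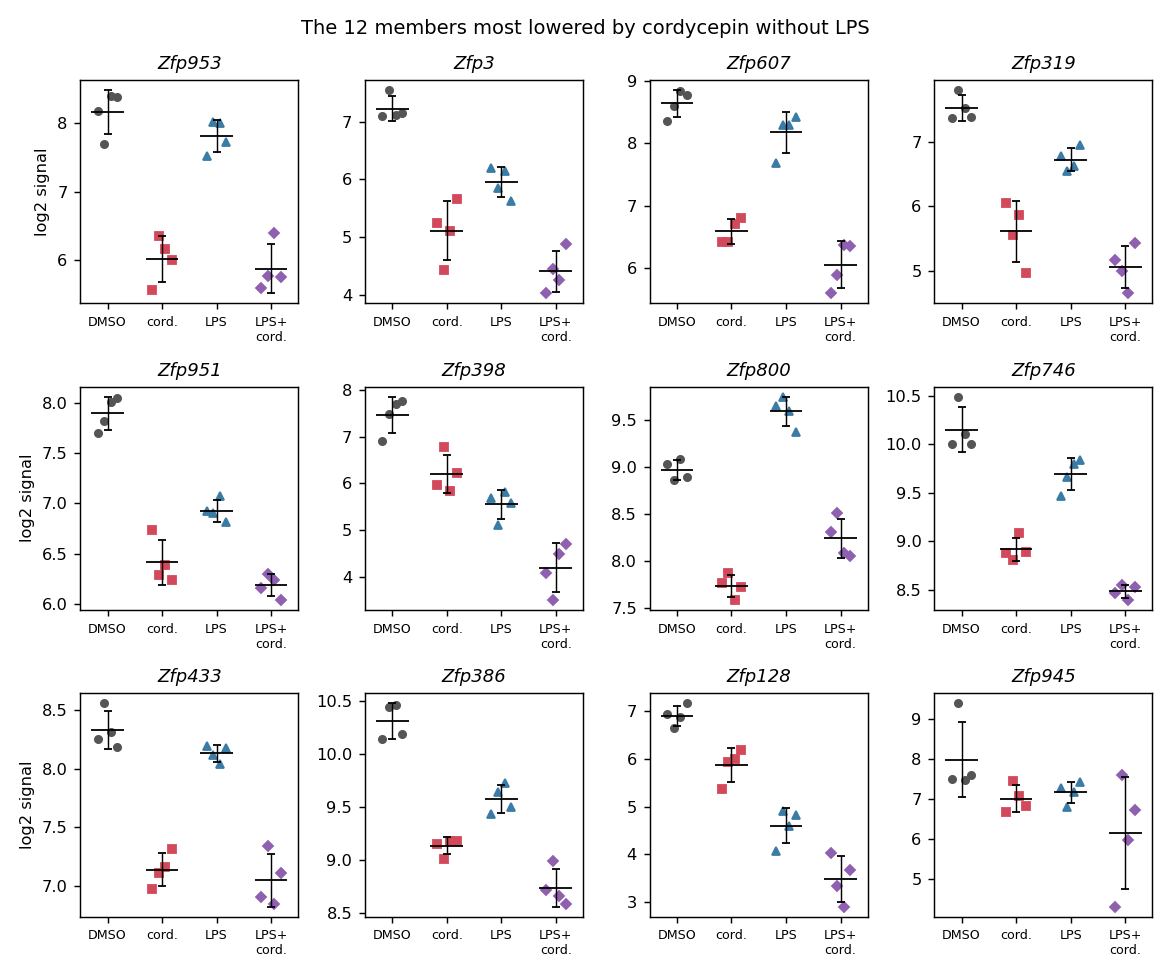
Log2 signal (y axis) on every array in the 4 conditions (x axis, cord. for cordycepin, LPS for LPS+DMSO) for the 12 genes most lowered by cordycepin without LPS; points are arrays, bars the mean and the SD of 4. The y axes differ and do not start at 0. In 11 of the 12 panels every LPS+cordycepin point lies below every LPS+DMSO point, and Zfp945 is the exception. The 12 were picked for their fall without LPS, and the share of all genes without such overlap was not computed.

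Over all 219 members, the changes in cordycepin with and without LPS went together. Across genes, which are not independent replicates, Pearson's r between the changes was 0.82 and Spearman's rho 0.76, compared with 0.76 and 0.65 over the other genes that met the rule. The comparisons share no array but share the culture days, slides and probes, and the DMSO arrays had chosen the members. Below 0 in both were 137 members and above 0 in both 39. The remaining 33 fell below 0 without LPS only and 10 with LPS only. With LPS, the 10 most lowered members among those called included 6 of the 12 above and, in addition, Zfp703 (-1.44, adjusted p = 2.95e-07), Zfp420 (-1.38, 5.86e-06), Zfp27 (-1.30, 0.00132) and Zfp111 (-1.23, 3.11e-05). A further probe of Zfp27 changed by -0.99 and one of Zfp111 by -1.66, so that both probes of each gene fell. With normexp background correction Zfp27 was at -0.37 and not called (adjusted p = 0.267).

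**Figure D3:**
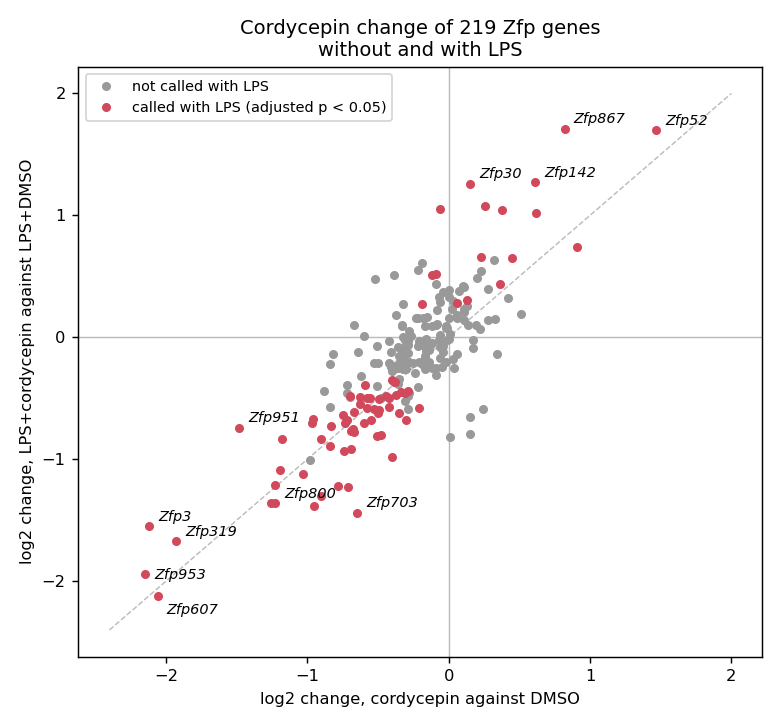
Fitted log2 change of each of the 219 genes in cordycepin against DMSO (x axis) and in LPS+cordycepin against LPS+DMSO (y axis), with red points called in the latter by limma. The dashed line marks equal changes; 137 points lie below 0 on both axes and 39 above 0 on both, and Zfp953, Zfp607, Zfp3 and Zfp319 lie at the lower left.

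The members most raised by cordycepin without LPS were Zfp52, Zfp850, Zfp867, Zfp719 and Zfp142, and all 5 were higher in LPS+cordycepin relative to LPS+DMSO as well, beside 10.8% of all genes. Where a gene had several probes, the one used was picked by a mean that includes the cordycepin arrays. Zfp52 had log2 levels of 7.85, 7.12, 8.08 and 8.04 in DMSO, 8.89, 9.23, 9.45 and 9.42 in cordycepin, 6.64, 6.71, 6.67 and 6.58 in LPS+DMSO, and 8.18, 8.50, 8.42 and 8.29 in LPS+cordycepin. Both cordycepin groups lay above their vehicle groups without overlap, and both LPS groups below their counterparts without LPS. Its change was 1.47 ± 0.18 without LPS and 1.70 ± 0.18 with LPS (adjusted p = 4.27e-06).

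Zfp867 had log2 levels of 6.80, 6.78, 6.84 and 6.17 in DMSO, 7.56, 7.19, 7.36 and 7.76 in cordycepin, 6.39, 6.37, 6.12 and 5.84 in LPS+DMSO, and 7.65, 7.61, 8.23 and 8.08 in LPS+cordycepin. The LPS+cordycepin group was the highest, and replicate 4 of DMSO lay below the other DMSO arrays. Its change was 0.82 ± 0.19 without LPS and 1.71 ± 0.19 with LPS (adjusted p = 6.29e-06). With LPS, Zfp142 changed by 1.27 ± 0.17 (adjusted p = 3.97e-05), Zfp719 by 1.02 ± 0.18 (0.000587) and Zfp850 by 0.74 ± 0.18 (0.00694, but 0.0598 without replicate 1 and 0.0545 without replicate 3). Zfp30, a KRAB gene linked to the chemokine Cxcl1 in mouse airways, changed by 1.26 ± 0.18 with LPS (adjusted p = 7.34e-05) and by 0.15 ± 0.18 without. Zfp473, which takes part in the processing of histone mRNA 3′ ends, changed by 1.08 ± 0.29 with LPS (adjusted p = 0.0144), detected on 2 LPS+DMSO and 3 LPS+cordycepin arrays, and it was not called without replicate 2 (0.0521), without replicate 4 (0.0681) or without the LPS+cordycepin array of replicate 4 (0.0511). Zfp473 and Zfp850 also lost their calls with quantile normalization (at 0.81, adjusted p = 0.0582, and 0.53, 0.0516) and in the deposited normalized values (0.48, 0.358, and 0.42, 0.0563).

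For several members, among them 3 of the 5 most raised, probes of the same gene moved in opposite directions. This was examined after the values had been seen and its cause was not tested. In LPS+cordycepin against LPS+DMSO, in a fit of all 21591 probes kept, the upstream probe (mm9 chr11:59275304-59275363, minus strand) changed by -1.17 (adjusted p = 3.74e-05) and the downstream probe (chr11:59274724-59274783) by 1.71 (6.15e-06) for Zfp867. Both are assigned to the same accession, 580 bases apart, and the downstream probe changed more in 4 of 4 replicates. For Zfp142, the upstream probe (mm9 chr1:74613875-74615137, minus strand) changed by -0.82 (adjusted p = 9.45e-05) and the downstream probe (chr1:74611702-74611761) by 1.27 (3.81e-05). For Zfp850, the upstream probe (mm9 chr7:28772678-28772737, minus strand) changed by -0.73 (adjusted p = 0.0366) and the downstream probe (chr7:28769916-28769975) by 0.74 (0.0067). The upstream probe of Zfp142 spans more of the genome than its own length. The rise reported for these 3 genes is that of the downstream probe, which was the brighter one. With the mean of a gene's probes, their changes were 0.27 (adjusted p = 0.155), 0.23 (0.308) and 0.00 (0.991), none of them called.

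Further probes could be placed on the same chromosome and strand as the probe used for 74 members, in 85 pairs. The downstream probe had the higher change in 49 pairs, with a median difference of 0.11 (log2). It was higher by at least 1 in 12 pairs and lower by at least 1 in 2. Called in opposite directions by limma were 7 pairs, of Zfp867, Zfp142, Zfp850, Zfp68, Zfp207, Zfp644 and Zfp652, and the downstream probe was the higher one in all 7. Probe pairs of other genes were not counted, so whether any of these counts is particular to Zfp genes was not tested. The probes of Zfp207, Zfp644 and Zfp652 belong to 2 accessions each, and those of the other 4 genes to 1. Zfp207, a protein of the kinetochore and of splicing, changed by -0.45 at the upstream probe and 2.34 at the dimmer downstream probe, which belongs to a noncoding accession. The mean of its probes was higher in LPS+cordycepin, at 0.95 (adjusted p = 0.000843), against the sign of the brighter probe. Zfp68 changed by -0.77 and 0.43, Zfp644 by -0.7 and 2.24, and Zfp652 by -0.7 and 0.38.

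Further probes of the lowered genes were compared by direction only, a fall being any change below 0 whether called or not. Of the members called lower in LPS+cordycepin against LPS+DMSO, 19 had a further probe, and in 14 of them every further probe fell too. Among all 219 members, 67.1% had a change below 0 in this comparison at the probe used, so many further probes would fall in any case. Whether the agreement exceeds that share was not tested. For members called either way the count was 15 of 23.

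**Figure D4:**
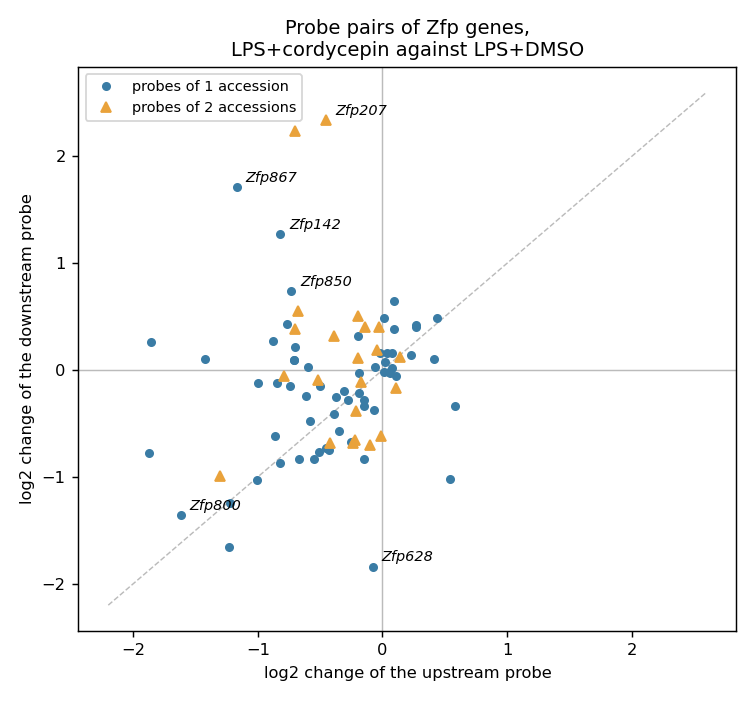
Log2 change in LPS+cordycepin against LPS+DMSO of the upstream (x axis) and the downstream probe (y axis) in 85 probe pairs of Zfp genes, with circles for pairs of 1 accession and triangles for pairs of 2. Points above the dashed line of equal change have the higher downstream probe; Zfp867, Zfp142, Zfp850 and Zfp207 lie at the upper left, where the upstream probe fell and the downstream probe rose.

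LPS lowered many members as well. In LPS+DMSO against DMSO, 93 (42.5%) were lower and 11 (5.02%) higher, beside 9.69% and 5.14% of all genes, with a median change of -0.36 (-0.33, -0.35, -0.42 and -0.34 within the replicates). In LPS+cordycepin against cordycepin, 59 members (26.9%) were lower and 9 (4.11%) higher by limma, compared with 4.39% and 3.64% of all genes. The means compared here use no DMSO array, but the spread of the fit does. At 2-fold or more 17 were lower and 1 higher, compared with 1.2% and 1.71%. Among the 10136 other genes that met the same rule, 57 were lower and 120 higher at 2-fold. The median change was -0.22, and -0.23, -0.20, -0.25 and -0.26 within the replicates.

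Zfp61 and Zfp82 were the clearest cases, being well above background on all 16 arrays. Zfp61 had log2 levels of 10.37, 10.62, 10.75 and 10.68 in DMSO, 10.02, 9.99, 10.08 and 9.93 in cordycepin, 8.31, 8.44, 8.44 and 8.57 in LPS+DMSO, and 8.54, 8.56, 8.53 and 8.18 in LPS+cordycepin. The LPS groups lay wholly below the groups without LPS, and LPS+DMSO and LPS+cordycepin overlapped. Its change with LPS was -2.16 ± 0.11 in DMSO and -1.56 ± 0.11 in cordycepin (adjusted p = 8.62e-08). Zfp82 went from 9.64 ± 0.14 to 7.62 ± 0.10 (SD, n = 4) in DMSO and from 9.13 ± 0.11 to 7.55 ± 0.17 in cordycepin, a change of -1.58 ± 0.10 in the latter (adjusted p = 5.77e-08). Zfp30 fell from 7.41 ± 0.21 in DMSO to 5.16 ± 0.18 in LPS+DMSO, where 2 arrays were well above background, and from 7.57 ± 0.08 to 6.42 ± 0.44 in cordycepin (change -1.15 ± 0.18, adjusted p = 0.000464, and 0.0802 with normexp background correction).

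Dimmer members dropped towards the background. Zfp128 was at least 1.41-fold lower in LPS+cordycepin than in cordycepin (adjusted p = 7.14e-06), Zfp94 at least 2.12-fold (adjusted p = 0.000145) and Zfp712 at least 1.21-fold (adjusted p = 0.0294). These bounds set the mean of the brighter group against the lowest signal that was well above background on each array. In cordycepin, the brighter group, Zfp128 and Zfp712 were well above background on only 2 arrays each and Zfp94 on 4. The bounds of Zfp128 and Zfp712 are therefore uncertain. With normexp background correction Zfp128 (0.199), Zfp94 (0.298) and Zfp398 (0.435) did not pass (adjusted p in parentheses). Zfp398 changed by -2.01 ± 0.27 (adjusted p = 0.000131) with 1 LPS+cordycepin array detected, and Zfp740 by -1.99 ± 0.34 (adjusted p = 0.00127) with 3. A further probe of Zfp740 changed by -0.57.

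A few members went the other way with LPS. Zfp703, a corepressor without a KRAB box that is amplified in luminal breast cancer, had log2 levels of 11.21, 11.26, 11.35 and 11.36 in DMSO, 10.62, 10.64, 10.68 and 10.66 in cordycepin, 12.58, 12.61, 12.68 and 12.80 in LPS+DMSO, and 11.08, 10.99, 11.20 and 11.65 in LPS+cordycepin. LPS+DMSO lay above and cordycepin below all other arrays, and DMSO and LPS+cordycepin overlapped. LPS changed it by 1.37 ± 0.12 in DMSO and 0.58 ± 0.12 in cordycepin (adjusted p = 0.00429, and 0.066 without replicate 3). It was the only member called in the interaction, the LPS change among cordycepin cultures minus that among DMSO cultures, at -0.79 ± 0.16 (adjusted p = 0.0468), where 0.258% of all genes were lower and 0.29% higher. In 18 of 20 fits without 1 replicate or 1 array it was not called. Over the 20 fits the change was -0.93 to -0.71 and the adjusted p reached 0.502, and the DMSO arrays that chose the members enter it. With the replicate block, the adjusted p was 0.0167, and Zfp30 was called as well (1.1 ± 0.25 without the block, 0.0354 with it and 0.0687 without it).

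Zfp568, a KRAB protein that represses a placental transcript of Igf2, had log2 levels of 8.86, 8.39, 8.81 and 8.55 in DMSO, 8.27, 8.08, 8.50 and 8.32 in cordycepin, 9.83, 9.85, 9.91 and 9.78 in LPS+DMSO, and 9.22, 9.35, 9.50 and 9.78 in LPS+cordycepin. Both LPS groups lay above both groups without LPS. The LPS change was 1.19 ± 0.13 in DMSO and 1.17 ± 0.13 in cordycepin (adjusted p = 2.22e-05). Zfp593, a factor of ribosome assembly, changed with LPS by 0.83 ± 0.09 in DMSO and 0.39 ± 0.09 in cordycepin (adjusted p = 0.0123, but 0.103, 0.104 and 0.0529 without replicates 1, 3 and 4), and it was lower in LPS+cordycepin relative to LPS+DMSO, at -1.22 ± 0.09 (adjusted p = 1.02e-07). Zfp275 was raised in LPS+DMSO by 0.63 and Zfp420 by 0.50. In cordycepin, Zfp719 (0.97, adjusted p = 0.00236), Zfp959 (0.69, 0.00117) and Zfp330 (0.64, 9.42e-05) rose with LPS, and Zfp143 changed by 0.63 (0.0364), a call that 9 of the leave-out fits lost.

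By role, KRAB proteins with a documented target were the first group. Of 8 listed genes 6 were members. By limma none was called lower or higher in LPS+cordycepin against LPS+DMSO, beside 8.4% and 10.8% of all genes. A list of 6 is too short to set 0 calls apart from those shares. At an unadjusted p under 0.05, 2 were lower, and 1 was called lower with the replicate block. The median change was -0.03, with a range of -0.38 to 0.33. The imprinting regulators Zfp57 and Zfp445 changed by 0.09 and 0.33 (adjusted p = 0.896 and 0.259), and Zfp809, which silences retroviruses, by -0.15 (0.646). Zfp568 changed by -0.38 (0.0599), Zfp932, a repressor of endogenous retroviruses, by 0.11 (0.692) and Zfp961 by -0.34 (0.151). Relative to cordycepin alone, LPS+cordycepin had Zfp568 higher and Zfp961 lower (-0.74, adjusted p = 0.00513, but 0.0593 and 0.0746 without replicates 3 and 4).

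The second group, of RNA binding and translation, was brighter, with a median level of 11.63. Of 11 listed genes 9 were members. By limma 2 were lower in LPS+cordycepin relative to LPS+DMSO and none was higher (1 at an unadjusted p under 0.05), beside 8.4% and 10.8% of all genes, at a median of 0.02. The lower ones were Zfp207 (-0.45, adjusted p = 0.00947, but 0.0529 and 0.114 without replicates 3 and 4) and Zfp346, a protein that binds double-stranded RNA (-0.35, adjusted p = 0.0453, and 0.0501 with the replicate block), which 14 of the 20 leave-out fits did not call. Zfp598, the sensor of collided ribosomes, changed by -0.01 (0.975). Zfp622, which acts in the maturation of the large ribosomal subunit, changed by -0.09 (0.672), and Zfp106, Zfp326, Zfp706, Zfp871 and Zfp330 by 0.02 to 0.32 without a call. Zfp330 was the member of this group that rose with LPS, by 0.57 in DMSO and 0.64 in cordycepin.

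The third group held 19 of 27 listed regulators without a KRAB box. Of these, 7 were lower and 1 was higher in LPS+cordycepin against LPS+DMSO, beside 8.4% and 10.8% of all genes, with a median change of -0.12. Beside Zfp703 and Zfp800, the lower ones were Zfp318, which controls the processing of the IgD transcript in B cells (-0.75, adjusted p = 4.84e-05), Zfp292 (-0.57, 0.00554, but -0.36 and 0.0948 with normexp background correction, and 0.0672 by the methods' t-test), Zfp407 (-0.49, 0.00567, and 0.0679 without replicate 2), Zfp335 (-0.47, 0.0151, 0.163 without replicate 1 and 0.0518 without LPS+DMSO replicate 4) and Zfp131 (-0.44, 0.00322, and 0.0579 without replicate 3). Zfp148, a factor of GC-rich promoters, was higher at 0.65 (adjusted p = 0.00649, and 0.0672 and 0.0712 without replicates 1 and 3), while its further probe changed by 0.09. Zfp281, Zfp143, Zfp217, Zfp219, Zfp384, Zfp410, Zfp64, Zfp362, Zfp462, Zfp592 and Zfp687 did not pass. Of these, Zfp217, an oncogene of breast cancer, was lower in LPS+cordycepin than in cordycepin (-0.78, adjusted p = 0.000678), as was Zfp292 (-0.71, 0.00248, but -0.46 and 0.0658 with normexp background correction). Zfp410, known for its control of Chd4, changed by -0.09 (0.852).

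The partners of the KRAB proteins were examined as well. Of 24 listed genes of the corepressor complex and of the heterochromatin it builds, 23 were tested, none was lower in LPS+cordycepin relative to LPS+DMSO by limma (1 at an unadjusted p under 0.05 and 1 with the replicate block) and 2 (8.7%) were higher, beside 8.4% and 10.8% of all genes, with a median change of 0.09. The higher ones were the DNA methyltransferase Dnmt3a (0.68, adjusted p = 0.00471) and Pphln1 (0.34, 0.0441), a part of the HUSH silencing complex. Trim28 itself changed by 0.09 (0.675) and the histone methyltransferase Setdb1 by 0.08 (0.75). Between LPS+cordycepin and cordycepin none of the 23 was called by limma, and 0 had an unadjusted p under 0.05.

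Other zinc finger genes were set beside the members as a description. Of 41 genes named Zbtb, Zscan or Zkscan that met the same rule, 10 (24.4%) were lower and 2 higher in LPS+cordycepin relative to LPS+DMSO, and 11 (26.8%) lower and 1 higher in LPS+cordycepin than in cordycepin. Of all genes, 8.4% were lower and 10.8% higher in the first of these comparisons and 4.39% and 3.64% in the second. The median changes of the list were -0.07 and -0.13. The 10 Klf genes, of the Krüppel-like factors, had 2 lower and 0 higher with cordycepin in LPS cells by limma (5 and 0 at an unadjusted p under 0.05), and 0 lower and 2 higher with LPS in cordycepin (1 and 3). The same shares of all genes apply, and the differences between these lists were not tested.

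Since the members were dim, they were also split by their mean level over the conditions into 3 groups of 73. With cordycepin in LPS cells, 26.0% of the dimmest, 31.5% of the middle and 21.9% of the brightest group were lower, compared with 8.96%, 13.1% and 9.82% of the other genes of the same levels that met the rule. With LPS in cordycepin cells the shares were 34.2%, 34.2% and 12.3%, compared with 5.51%, 5.55% and 2.96%. At each level the share of lower members was above that of other genes. The 182 members well above background on all 16 arrays had 48 (26.4%) lower and 12 (6.59%) higher with cordycepin in LPS cells. Of the 9812 other genes that met the rule and were so detected, 10.3% were lower and 5.55% higher.

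Zfp genes lie in clusters, where related copies stand side by side. By the probe positions on mm9, 57 of the members were on chromosome 7 and 27 on chromosome 17, and 85 lay in 11 clusters of at least 4 members with gaps of up to 500 kb. Some neighbours were called in opposite directions, and whether neighbours moved more alike than other members was not tested. In the cluster of 12 at chr7:30566378-30946346, Zfp30 (chr7:30579489-30579548) was higher in LPS+cordycepin relative to LPS+DMSO while Zfp420 and Zfp27 were lower, and the other 9 were not called. With LPS in DMSO, Zfp30, Zfp82 and Zfp566 changed by -2.25, -2.02 and -1.44, and Zfp568, between Zfp30 and Zfp82, by 1.19. In the cluster of 15 at chr17:21165104-23693921, which holds Zfp52 and Zfp945, changes in LPS+cordycepin against LPS+DMSO ran from -1.01 to 1.70, with 2 lower and 2 higher. In LPS+DMSO against DMSO, 11 of these 15 were lower and none higher, beside 9.69% and 5.14% of all genes. Over all 219 members those shares were 42.5% and 5.02%. The cluster of 8 at chr13:67139715-67806569 held Zfp953 and ran from -1.94 to 0.54. Zfp398 and Zfp746 lay in the cluster of 7 at chr6:47817001-48377858, whose other 5 members were not called in LPS+cordycepin against LPS+DMSO.

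**Figure D5:**
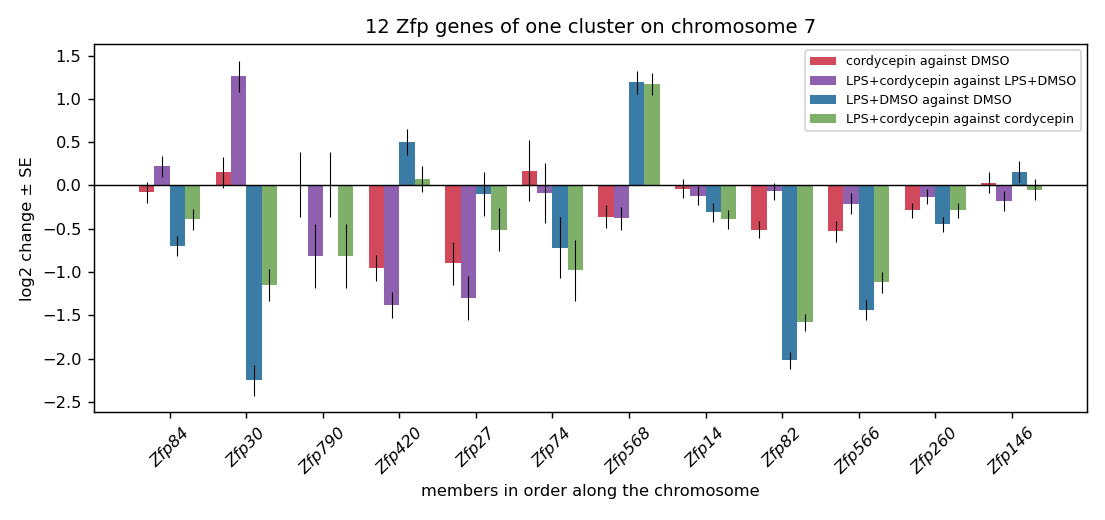
Fitted log2 change (bars, with the SE) of the 12 genes of the chromosome 7 cluster, in order along the chromosome, in the 4 comparisons. Zfp30, Zfp82 and Zfp566 have the lowest blue bars (LPS+DMSO against DMSO), at -2.25, -2.02 and -1.44, and Zfp568 the highest, at 1.19.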

How the data were processed

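RNA from RAW264.7 cells was measured on 16 single-colour Agilent mouse 8x60K arrays, 4 per condition, on 2 slides (replicates 1 and 2 on 1 slide, 3 and 4 on the other). The authors scanned the arrays and deposited the Feature Extraction output, whose processed intensity is background-subtracted per spot, and a table of normalized log2 values made from the same arrays. The file headers name software version 10.7.3.1 and the submitters' processing notes Agilent Feature Extraction 10.10.1.1 and limma. The labels name a Nucleospin column kit for the RNA and the methods TRIzol. Between 37.1% and 51.2% of 59305 spots per array were well above background and 0 were saturated, and precision is limited by the 4 arrays per condition.

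From the intensity, control spots and outlier spots (108 to 237 per array) were left out, spots of a probe were averaged on the log2 scale, and each array was scaled by its 75th percentile, taken over the 18138 probes that every array detected. Probes detected on each of the 4 arrays of a condition, by the software's flag for well above background, were kept (21591), the brightest stood for its gene, and 15883 genes were fitted with limma (limma 3.58.1, R 4.3.3) as 4 condition means, with Benjamini-Hochberg adjustment over all genes; called means an adjusted p under 0.05. Tables and figures used Python 3.11.15, numpy 2.4.6, pandas 2.3.3, scipy 1.17.1 and matplotlib 3.10.9. The fit was tested on simulated data from these arrays for LPS+cordycepin against LPS+DMSO, where 82 of 100 genes changed by 1 and 96 of 100 changed by 2 (log2) were called, with 14 false calls. Symbols were matched to RefSeq (GRCm38.p6) by accession for 216 of 219 genes. All table columns belonged to a sample.

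The members, the lists and the tests were chosen with earlier results of these data known. Genes were named by these rules: the 12 most lowered and 5 most raised in cordycepin against DMSO that moved one way in all 4 replicates, the 10 and 5 of that kind among those called in LPS+cordycepin against LPS+DMSO, the 5 and 5 among those called in each LPS comparison, those called in the interaction, the 5 brightest members and the members of the role lists. Genes whose probes disagree, members of clusters, Zfp712, Zfp740 and Zfp420 under LPS were named after their values were seen.

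Replicate numbers mark a shared culture day, per the series' design text. Deviations from the condition means correlated at 0.198 on average between same-numbered arrays (-0.059 to 0.440, over 0.1 in 20 of 24 pairs), 0.177 between other numbers of one slide and -0.187 between slides. Fits with the replicate number or the slide as a block, other scalings, normexp background correction (offset 50), the authors' log2 table, other filters, thresholds, probe rules, the methods' t-test on the same log2 values and leaving out replicates or arrays were the alternatives.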

Additional observations from a re-analysis of the deposited data

Results flagged for a closer look

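In some groups of 4 arrays, 1 array lay apart from the others by Dixon's criterion at the 95% level. Over 264 groups of 66 named genes this held for 12 (4.55%), and chance alone gives about 1 in 20. Replicate 2 of DMSO was at 9.40 for Zfp945 (others 7.47 to 7.60) and at 7.55 for Zfp3 (others 7.09 to 7.15), both among the genes most lowered by cordycepin. Replicate 1 of LPS+DMSO was at 7.69 for Zfp607 (others 8.30 to 8.42), and replicate 4 of DMSO was at 6.17 for Zfp867 (others 6.78 to 6.84). Replicate 4 of LPS+cordycepin was at 8.18 for Zfp61 (others 8.53 to 8.56), and replicate 3 of LPS+DMSO was at 8.70 for Zfp111 (others 8.35 to 8.37). Zfp219 was low in replicate 1 of both DMSO, at 7.15 (others 7.62 to 7.71), and LPS+DMSO, at 7.27 (others 7.49 to 7.51). Replicate 2 of cordycepin was at 9.01 for Zfp386 (others 9.15 to 9.18) and at 9.70 for Zfp598 (others 9.98 to 10.02). Replicate 2 of LPS+cordycepin was at 17.23 for Zfp408 (others 17.54 to 17.57), and replicate 1 of cordycepin was at 10.32 for Zfp961 (others 10.52 to 10.56).

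The response of Zfp703 to LPS differed between cordycepin and DMSO, by -0.79 on the log2 scale (adjusted p = 0.0468 for the interaction in limma), a call that 18 of 20 fits without a replicate or an array did not make.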

How the results depend on the processing

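Of 2017 values of 54 called results for named genes under other settings, 1796 kept their direction and their side of the threshold, 220 kept their direction but were not called, and 1 reversed: Zfp207, at 0.95 with the mean of a gene's probes (-0.45 with the brightest). The 4 comparisons are given here as C/L for LPS+cordycepin against LPS+DMSO, C for cordycepin against DMSO, L for LPS+DMSO against DMSO and L/C for LPS+cordycepin against cordycepin, with members lower and higher and the median log2 change. Scaling to the 6 spiked-in probes gave 14, 2 and -0.30 for C/L, 5, 1 and -0.22 for C, 24, 0 and -0.47 for L, 17, 0 and -0.53 for L/C, and 0 calls and a median of -0.10 for the interaction (0.10 with the scaling of the report). That scaling moved the median of all genes to -0.10, 0.10, -0.15 and -0.35 in the 4 comparisons, relative to which the members lay lower in each. The 75th percentile over all probes gave 10 higher and a median of -0.29 for C/L, medians of -0.34 for C and -0.29 for L, and 2 calls and a median of 0.03 for the interaction. Quantile normalization gave 11 higher and -0.28 for C/L, and the values deposited by the authors 10 higher and -0.24 for C/L and -0.28 for L. Normexp gave medians of -0.06 for C/L, -0.14 for L/C and 0.17 for the interaction, 3 higher for C and 28 lower for L/C. Without a filter on dim probes there were 9 higher for C/L, 43 lower and 4 higher for C, 7 higher for L, 34 lower and 5 higher for L/C and 0 for the interaction. Testing probes detected on all 16 arrays gave 11 higher for C/L and medians of -0.27 for L and -0.18 for L/C, and membership by that rule the same medians. The mean of a gene's probes gave -0.27 for L/C, and a fit of the conditions compared 11 higher for C/L. At 2-fold the counts lower and higher were 14 and 8, 11 and 1, 28 and 2, and 17 and 1, and 0 for the interaction. At an adjusted p under 0.01 there were 9, 4 and 7 higher for C/L, C and L, 37 lower and 5 higher for L/C, and 0 for the interaction. The methods' t-test after Benjamini-Hochberg gave 10 and 3 higher for C/L and C and 39 lower and 5 higher for L/C, and without adjustment 14 higher for L/C. The unadjusted limma p, chosen after seeing the data, gave 30 and 17 higher for C/L and L, 93 lower and 17 higher for L/C, and 28 for the interaction. The cause of these moves was not tested.

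With the replicate block, a paired fit, 68 members were lower and 25 higher for C/L, 82 and 8 for C, 104 and 13 for L, 72 and 11 for L/C, and 2 were called in the interaction. Of named genes outside the interaction, the block ended the call of Zfp346 alone. The slide as a block gave 3 in the interaction. Leaving out a replicate or an array, with fewer samples in the fit, gave 8 to 19 higher for C/L (11 without replicate 1, 8 without replicate 3, 9 without replicate 4), 39 to 74 lower for C (39 without replicate 3) and 3 to 8 higher (3 without replicate 3, 4 without replicate 4 or cordycepin replicate 4). It gave 58 to 93 lower for L (58 without replicate 3) and 6 to 12 higher (7 and 6 without replicates 2 and 4). It gave 28 to 62 lower for L/C (28 and 34 without replicates 3 and 4) and 4 to 10 higher (4 without replicate 3), and 0 to 2 in the interaction. Medians ranged from -0.31 to -0.23 for C, -0.39 to -0.31 for L and -0.28 to -0.21 for L/C. Members that are not well above background on all arrays of a condition have changes whose size rests on the background correction.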

Other observations

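Further clusters on chromosome 7 (mm9) are described here, picked after their values were seen, and differences between clusters were not tested. In LPS+DMSO against DMSO, 5 of 7, 5 of 10 and 3 of 6 members were lower in the clusters given below, in that order, beside 9.69% of all genes. Over all 219 members that share was 42.5%. In the cluster of 7 at chr7:24892175-25295771, 5 members were lower in LPS+cordycepin than in cordycepin by limma, beside 4.39% of all genes and 26.9% of all members. These were Zfp94, Zfp61, Zfp235 (-0.78 ± 0.21 SE, adjusted p = 0.0313), Zfp111 (-0.65 ± 0.16, 0.018, but 0.0791 without replicate 1, 0.191 without replicate 4 and 0.0587 with normexp background correction, and between 0.0556 and 0.0682 without any of 4 single arrays) and Zfp180 (-0.40 ± 0.11, 0.0388), while Zfp93 (-0.64 ± 0.21, 0.0795) and Zfp428 (-0.20 ± 0.16, 0.621) did not pass. Zfp111 was the member of this cluster called in LPS+cordycepin against LPS+DMSO, and Zfp61 changed by 0.01 ± 0.11 (adjusted p = 0.974).

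In the cluster of 10 at chr7:134381189-135029250, Zfp553 (-1.25 ± 0.10, adjusted p = 2.99e-07), Zfp688 (-0.84 ± 0.12, 0.000174), Zfp768 (-0.61 ± 0.14, 0.0144), Zfp689 (-0.45 ± 0.12, 0.033) and Zfp668 (-0.40 ± 0.11, 0.0312) were lower in LPS+cordycepin than in cordycepin. Of these, Zfp768 (-0.89 ± 0.14, adjusted p = 0.00028), Zfp553 (-0.50 ± 0.10, 0.00118) and Zfp668 (-0.48 ± 0.11, 0.00403) were also lower in LPS+cordycepin relative to LPS+DMSO, and Zfp688 changed by -0.03 ± 0.12 (0.917). In the cluster of 6 at chr7:4871046-5005178, Zfp784 (1.04 ± 0.22, adjusted p = 0.00265) and Zfp579 (0.52 ± 0.15, 0.0226) were higher in LPS+cordycepin relative to LPS+DMSO. Over all 6 members of that cluster, the changes in LPS+cordycepin against cordycepin were -0.37 to -0.01, and none passed. In LPS+DMSO against DMSO the changes of the 6 were -0.77 to 0.01, with a median of -0.57. The 2 comparisons of LPS+cordycepin, with LPS+DMSO and with cordycepin, share the LPS+cordycepin arrays.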
